A study of Mus musculus with 5 samples.

Results

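The genes described here are the autosomal mouse genes that carry only a provisional symbol made of the letters Gm and a number. They were taken from the deposited gene table by their symbol, by a place on chromosomes 1 to 19, and by a mean normalized count of at least 10 over the 5 samples. Of 56324 rows in the table, 1602 carried such a symbol, 1513 of them on an autosome. The mean of 10 was reached by 795 autosomal rows and not by 718, of which 242 had no read in any library. The rule chose on the mean over all samples, so the levels themselves are a description. The rows nearest to the limit were Gm1078 at 9.95 and Gm10466 at 9.998 outside it, and Gm11937 at 10.1 and Gm5532 at 10.1 inside it.

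The samples were germ cells of C57Bl/6 males aged 12 weeks, separated by sedimentation at unit gravity, which sorts cells mainly by size. The group of spermatocytes, in which meiosis takes place, had 2 samples. The group of spermatids, the haploid cells that mature into sperm, had 3. No other treatment or genotype is given for either group. Polyadenylated RNA was sequenced with a stranded kit, and the deposited value is a count per gene divided by a size factor for its library, called normalized count here. Separate animals are not stated for the samples, so the p-values rest on the spread among these libraries, and that spread may be technical.

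A Gm number is the name that the mouse nomenclature gives to a gene model found by computation, before anyone has described its product. Such models hold several kinds of gene: members of young multicopy families, long noncoding RNAs, copies of other genes that were reinserted into the genome (pseudogenes), and ordinary protein genes that were named later. The testis is known for transcribing many loci that are silent elsewhere, and round spermatids for making RNA from genes that are only used after meiosis.

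The upstream sequences of a local family on chromosome 5 are shown first, because its 5 neighbouring genes were all among the most strongly spermatid-biased of the group. They are the 250 bases before the start of each gene, from RefSeq's promoter windows on build GRCm38.p6, which has the coordinates of mm10. All lie on the plus strand and read 5′ to 3′ towards the start. Capitals in the lines below that of Gm6370 mark bases that differ from, or have no partner in, an alignment with Gm6370. That alignment puts no penalty on unpaired ends. The windows lie at chr5:146491113-146491362 for Gm6370, chr5:146525551-146525800 for Gm3404, chr5:146537398-146537647 for Gm3409 and chr5:146481693-146481942 for Gm6408.
Gm6370: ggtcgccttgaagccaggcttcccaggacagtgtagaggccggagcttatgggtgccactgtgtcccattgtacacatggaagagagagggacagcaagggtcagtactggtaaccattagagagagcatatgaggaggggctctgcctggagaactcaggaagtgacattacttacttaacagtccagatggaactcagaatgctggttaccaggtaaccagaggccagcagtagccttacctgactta
Gm3404: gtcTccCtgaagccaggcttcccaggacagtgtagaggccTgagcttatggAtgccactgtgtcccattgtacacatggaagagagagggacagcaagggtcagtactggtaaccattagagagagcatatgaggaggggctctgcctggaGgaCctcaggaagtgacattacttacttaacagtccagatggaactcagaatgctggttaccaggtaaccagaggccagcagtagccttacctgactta
Gm3409: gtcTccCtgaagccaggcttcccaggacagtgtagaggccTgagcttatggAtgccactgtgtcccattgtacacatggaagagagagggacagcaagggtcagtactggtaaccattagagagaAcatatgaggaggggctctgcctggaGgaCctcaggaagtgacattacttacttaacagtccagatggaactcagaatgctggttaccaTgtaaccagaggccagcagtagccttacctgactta
Gm6408: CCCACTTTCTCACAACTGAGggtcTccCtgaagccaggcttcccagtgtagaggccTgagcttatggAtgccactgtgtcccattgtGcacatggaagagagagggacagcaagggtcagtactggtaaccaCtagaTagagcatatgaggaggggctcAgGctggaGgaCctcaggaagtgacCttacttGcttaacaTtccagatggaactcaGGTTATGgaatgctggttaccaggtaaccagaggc
The window of Gm3402, the fifth gene, was the same as that of Gm6370 at 250 of 250 bases. Gm6370 and Gm3404 were identical at 98.0% of 249 aligned bases, Gm3404 and Gm3409 at 99.2% of 250, and Gm6370 and Gm6408 at 94.1% of 222. Gm6408 stood furthest apart, with 13 mismatches to Gm6370 against 5 in Gm3404 and 7 in Gm3409. Its 41 capitals, against 6 in Gm3404 and 8 in Gm3409, also count bases with no partner. Among these is the run of capitals at the left end of its window. The transcripts of all but Gm6408 were also at least 95% identical over 80% or more of their length to those of 5 or 6 other genes, and that of Gm6408 was 93.9% identical to Gm5565. How reads that fit several copies were counted is not given in the sources used here, so each single level is uncertain.

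In these 5 genes the order of the groups was the same in every library. Gm6370 was at 115 and 53.0 normalized counts in spermatocyte replicates 1 and 2 and at 4867, 5532 and 5994 in spermatid replicates 1, 2 and 3. Gm3404 was at 76.5 and 46.9 in spermatocytes and at 4802, 4927 and 4870 in spermatids. The groups did not overlap for either gene. Log2 fold changes are on the scale of log2(normalized count + 1), and on it spermatids were 6.10 higher for Gm6370 (SE 0.31, limma, Benjamini-Hochberg adjusted p = 4.47e-06) and 6.32 higher for Gm3404 (SE 0.20, limma adjusted p = 7.96e-07). For Gm6408 the spermatocyte values were 67.9 and 55.0 and the spermatid values 3045, 2828 and 3278. Gm3402 was at 47.4 and 13.4 in spermatocytes and at 2495, 2789 and 2770 in spermatids, and Gm3409 was at 62.5 and 28.8 against 1713, 2427 and 2583. All 5 were called higher by limma, with log2 fold changes of 5.62 to 6.67 and a median of 6.10. In each of them spermatocyte replicate 1 was above replicate 2, in Gm3402 by over 3-fold. The spermatid markers described below had the same order of these replicates.

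Taken as one list, the Gm-numbered genes were called higher in spermatids more often than lower. Limma was fitted over all 28370 rows with a mean of at least 10, and a gene was called at an adjusted p under 0.05. It called 376 of the 795 genes higher in spermatids (47.3%), where 40.6% of all rows were called higher, and 214 lower (26.9%), where 36.5% of all rows were called lower. The median log2 fold change was 0.59 over the Gm-numbered genes and 0.07 over all rows. Calls in either direction came to 74.2%, against 77.1% of all rows. The 2 groups stood apart without overlap, higher in spermatids, for 406 of the 795 Gm-numbered genes, where 44.3% of all rows did so. They stood apart, lower in spermatids, for 253 of the 795, where 41.5% of all rows did so. Together these were 82.9% of the Gm-numbered genes against 85.8% of all rows, so separation of the groups was no more frequent here than in the table. A rise of 32-fold or more toward spermatids was found for 126 Gm-numbered genes (15.8%) against 9.59% of all rows, and a fall of that size for 10 (1.26%) against 1.52%. These counts cannot be read as support for a bias, because a gene with reads in 1 group alone passes the limit on the mean only where it differs. None of the differences between lists was tested.

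**Figure D1:**
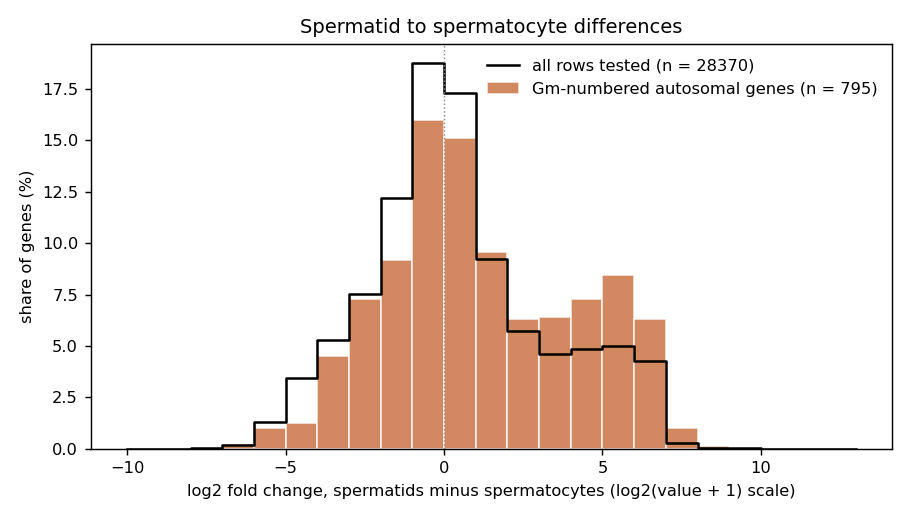
Share of genes (%) in steps of 1 of the log2 fold change, spermatids minus spermatocytes, for the 795 Gm-numbered genes (filled bars) and for all 28370 rows tested (black outline). The bars stand above the outline from 1 to 9 and below it from -6 to 1.

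Separating the genes by level changed the picture. A mean of at least 10 in both groups was found for 570 genes, of which 214 were higher (37.5%) and 173 lower (30.4%), with a median of 0.10. Over the 21828 rows of the table at that level, 8149 were higher (37.3%) and 7692 lower (35.2%), with a median of 0.00. The share called higher was thus near that of all rows at this level, and the share called lower was smaller. Another 174 genes reached 10 in spermatids alone; 162 of them were called higher (93.1%) and 20 had no spermatocyte read (11.5%). Of the 3641 rows of the table at that level 92.4% were called higher and 13.2% had no spermatocyte read. A further 51 genes reached 10 in spermatocytes alone, 41 of which were called lower (80.4%), and 3 had no spermatid read. Of the 2901 rows of the table at that level 91.9% were called lower. Genes of these last 2 levels passed the limit through the group where they were high.

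The read depths of the groups overlapped. The libraries held 52784231 and 80384019 reads in spermatocytes and 62249782 to 84361908 in spermatids, recovered from the deposited values as whole multiples of the smallest one. The Gm-numbered genes took 1.73 to 1.76% of each library, and 741 to 789 of the 795 had a read in it. The normalized totals were 56855924 and 53899393 in spermatocytes and 80600836 to 96511989 in spermatids. With every library rescaled to 1 total, the median over all rows moved from 0.07 to -0.57 and that of the Gm-numbered genes from 0.59 to -0.05. With quantile normalization the medians were -0.42 and 0.18. Among the calls on Gm-numbered genes, 63.7% were higher as deposited, 52.2% with equal totals and 55.8% with quantile normalization. Over all rows these shares were 52.6%, 38.1% and 41.3%. The Gm-numbered median exceeded that of all rows by 0.53, 0.52 and 0.59 under the deposited scaling, equal totals and quantile normalization. These medians include the genes that reached 10 in 1 group alone, and rescaling left the choice of genes as it was. With a mean of at least 10 in both groups, the deposited medians were 0.10 for the Gm-numbered genes and 0.00 for all rows.

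Markers of the labelled cells were checked in the same table. All 13 spermatid markers found, such as the protamine and transition protein genes, were higher in spermatids; their summed level was 18888 and 24975 in spermatocytes and 875016 to 2321780 in spermatids. Each stood in spermatocytes at 1.27 to 2.58% of its spermatid level. Spermatid replicate 1 was the highest for all of them but Acrv1, Catsper1, Spaca1 and Tssk1. Prm2, for example, was at 583221 in it against 140587 and 140411 in replicates 2 and 3. Of 13 spermatocyte markers 6 were lower in spermatids, among them Sycp2 and Sycp3 of the synaptonemal complex. Another 3 were higher, among them Syce2 of the same complex, by 3.49, and Sycp1 and Syce1 were not called. Genes of Sertoli cells, the somatic nurse cells of the tubule, were also present: 10 of 10 were lower in spermatids, with summed levels of 53717 and 70720 in spermatocytes against 1688 to 2096. All 6 Leydig cell markers found were lower, with sums of 2676 to 3414 against 132 to 321. Of 9 markers of myoid, endothelial, macrophage and blood cells 5 were higher in spermatids and 1 lower, with sums of 427 to 504 against 1248 to 1996, and of 10 spermatogonial markers 4 were higher and 2 lower. No marker of these lists was at 0 throughout a group. Fewer cells of a type and less RNA per cell cannot be told apart in such bulk samples. Spermatocyte replicate 2 was above replicate 1 for 9 of 10 Sertoli markers and for 0 of 13 spermatid markers. It was so for 99 of the 214 genes called lower, for 131 of the 376 called higher and for 12356 of the 28370 rows. The part of these other cells in the genes called lower was not tested.

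Among the 8 genes with the widest rise, 6 had a near-identical transcript elsewhere in the genome. Gm5796, a protein-coding model on chromosome 14, was at 0 and 11.4 in spermatocytes and at 1533, 854 and 881 in spermatids. Its log2 fold change was 8.22 (SE 0.96, limma adjusted p = 0.000231), but 6.40 without spermatocyte replicate 1 and 10.04 without spermatocyte replicate 2. Its row spans chr14:3055144-4041368 and overlaps 12 other rows, and its transcript is near-identical to those of 36 other genes, so this value cannot be assigned to 1 locus. Gm5901, at chr7:105375098-105378287 and with no such copy, was at 16.2 and 11.4 in spermatocytes and at 7676, 2793 and 2328 in spermatids, a log2 fold change of 7.98 (SE 0.50, limma adjusted p = 1.2e-05). Spermatid replicate 1 lay well above the other two, and the groups did not overlap. The row overlaps Fam160a2 on the opposite strand, which differed by 0.58.

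For a pair of genes there was no spermatocyte read at all. Gm5891, at chr7:21908665-21921291, was at 0 in both spermatocyte libraries and at 366, 192 and 215 in spermatids, a rise of at least 98.3-fold when each spermatocyte library is set at the floor of 3 reads. Gm3317, at chr14:5163642-5170292, was at 0 in both and at 260, 204 and 134 in spermatids, at least 76.1-fold higher on the same floor. Gm5891 has 2 near-identical partners and Gm3317 has 41, and these bounds cover counting error only.

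Gm10375 joined a large fold with a high level. It lies at chr14:43602627-43608013, was at 75.4 and 66.4 in spermatocytes, and was at 11589, 10854 and 9104 in spermatids. The log2 fold change was 7.19 (SE 0.14, limma adjusted p = 3.74e-07), and 9 other genes have near-identical transcripts. Gm9839, Gm3696 and Gm19386 completed the 8 largest rises, with log2 fold changes of 7.88, 7.29 and 7.19. Gm19386 was at 4.31 and 0 in spermatocytes and at 305, 338 and 366 in spermatids. Gm9839 was at 11.8 and 5.36 in spermatocytes and at 2465, 1836 and 2119 in spermatids. Gm3696 resembled Gm5796 in position and pattern: it was at 0 and 18.8 in spermatocytes and at 1078, 415 and 745 in spermatids, and it overlaps 12 rows. Without spermatocyte replicate 1 its change was 5.13 and without replicate 2 it was 9.44; for Gm19386 the values were 8.39 and 5.99. The order of the largest rises thus rests on single spermatocyte libraries.

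**Figure D2:**
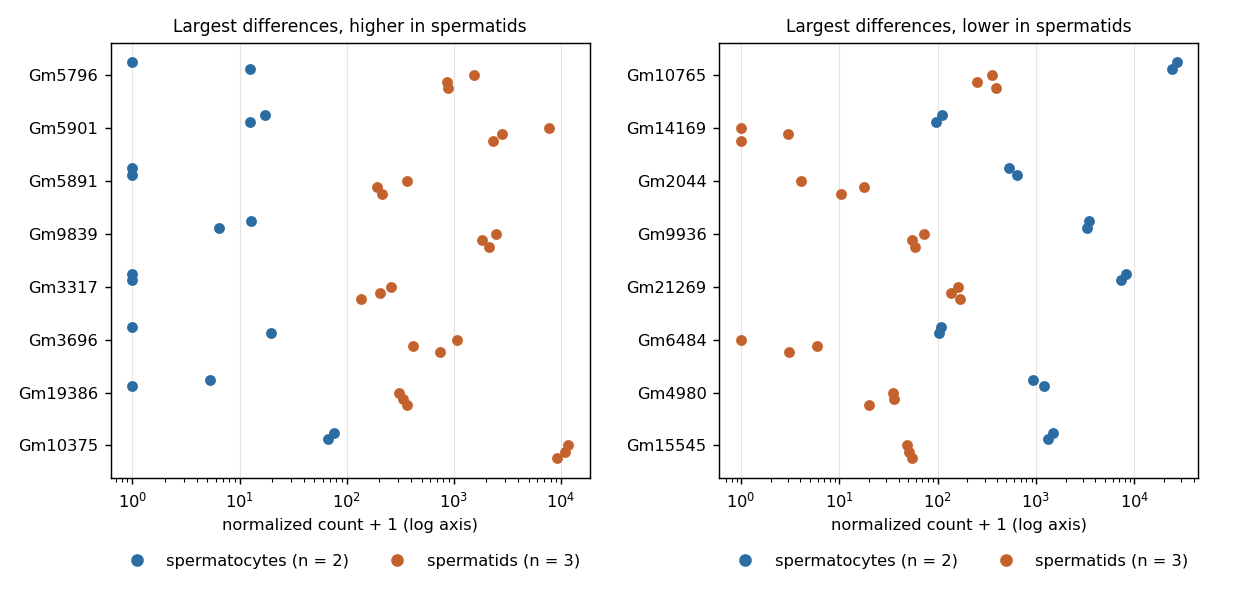
Normalized count + 1 (log axis) in each sample for the 8 widest rises and the 8 widest falls; each point is 1 sample, blue for spermatocytes (n = 2) and orange for spermatids (n = 3). In all 16 genes the groups are apart, and for Gm5891 and Gm3317 both spermatocyte points lie at 1, that is, no read.

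Falls of the same order were fewer. Gm10765, at chr2:127701945-127703711, had the largest on the log2(normalized count + 1) scale: it was at 26876 and 24155 in spermatocytes and at 357, 251 and 387 in spermatids. The log2 fold change was -6.28 (SE 0.19, limma adjusted p = 6.66e-07), a 78.0-fold lower level, and no other row overlaps it. Gm9936, at chr5:114855025-114859384, was at 3451 and 3305 in spermatocytes and at 71.3, 53.5 and 57.6 in spermatids, a change of -5.78 (SE 0.18, limma adjusted p = 6.65e-07). Gm21269, a long intergenic noncoding RNA at chr7:73825919-73836563, was at 8222 and 7305 in spermatocytes and at 160, 136 and 169 in spermatids, a change of -5.64 (SE 0.14, limma adjusted p = 4.81e-07), and its row overlaps 4 others. The spread within each group was small beside these differences.

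The remaining large falls were in genes of lower level. Gm2044, a long intergenic noncoding RNA, was at 531 and 632 in spermatocytes and at 3.10, 16.8 and 9.43 in spermatids. Gm14169 was at 110 and 95.9 in spermatocytes and had 2 reads over the 3 spermatid libraries, both in spermatid replicate 2. It was 132-fold lower in spermatids with no pseudocount, with an exact 95% Poisson interval of 36.5 to 1090. That interval covers counting error only and treats the 2 reads as independent. On the log2(normalized count + 1) scale Gm14169 changed by -6.17. With edgeR and DESeq2 the change was -6.86 and -7.08, beyond the -6.27 that both gave Gm10765. Gm4980, now named Tpbgl, was at 932 and 1214 against 34.1, 34.7 and 18.9. Gm15545, antisense to the apoptosis-related gene Bcl2l12, was at 1498 and 1335 in spermatocytes and at 48.1, 50.5 and 53.4 in spermatids. It fell by 4.78 on the log2 scale (limma adjusted p = 1.19e-06), and Bcl2l12 fell by 4.57. Gm6484 is Angptl8, which encodes a circulating regulator of lipoprotein lipase. It was at 108 and 102 in spermatocytes and at 0, 4.96 and 2.10 in spermatids, a change of -5.32 (limma adjusted p = 0.000555). Without spermatid replicate 1 the change was -4.62, and without spermatid replicate 2 it was -5.91.

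The genes with the highest levels changed little or moderately. Gm3417, at chr17:14964189-14978812, for which RefSeq lists the dynein light chain names Tcte3 and Tctex2 as synonyms, was the highest of the 795 genes in every library. It was at 120456 and 111481 in spermatocytes and at 139875, 140558 and 121423 in spermatids, which per kilobase of its longest transcript is a mean of 162878 and 188135. Its transcript is near-identical to those of 2 other genes, at 99.9% identity to Gm3448, and its row overlaps 3 others. This level and rank thus cannot be assigned to 1 locus. The difference of 0.21 was not called (SE 0.10, limma adjusted p = 0.11), and with equal library totals it turned to -0.44 and was called lower. Gm3925, now named Rbakdn, is a long noncoding RNA at chr5:143164779-143165751. It was at 53267 and 47155 in spermatocytes and at 42552, 48966 and 46559 in spermatids, or 85392 and 78276 per kilobase; the groups overlapped and the change of -0.13 was not called (limma adjusted p = 0.297). Gm6548, a pseudogene copy of the translation factor gene Eef1a1, was at 15908 and 13754 against 16612, 13720 and 12981, a change of -0.04. Gm13139, now the zinc finger gene Zfp991, was at 13074 and 11424 against 17662, 10114 and 10510, a change of 0.01, with spermatid replicate 1 well above the other two. Neither was called, and in both the groups overlapped. The transcripts of Gm6548 and Gm13139 are near-identical to those of 5 and 2 other genes, so their levels are uncertain too. Rescaled to equal totals, Gm3925, Gm6548 and Gm13139 were called lower.

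Others of high level were called. Gm128, at chr3:95236920-95241206, for which RefSeq lists the synonym Ment, was at 37377 and 34464 in spermatocytes and at 83377, 102760 and 92986 in spermatids, 1.37 higher (SE 0.11, limma adjusted p = 4.28e-05). Gm5617, at chr9:48495343-48495975, was at 21250 and 20252 against 55185, 47344 and 49666, 1.29 higher (SE 0.10, limma adjusted p = 2.87e-05). In neither gene did the groups overlap. Gm7444, a pseudogene on chromosome 9 whose transcript is 96.2% identical to 1700001J11Rik, was at 75388 and 69234 against 98568, 82467 and 85991, a difference of 0.30 (limma adjusted p = 0.0399). The groups did not overlap, but the call was lost with TMM factors (limma adjusted p = 0.1) and without a variance trend (0.131). It was also lost on leaving out spermatocyte replicate 1 (limma adjusted p = 0.115) or 2 (0.26) or spermatid replicate 3 (0.0736). The difference turned to -0.35 with equal totals. Gm2762, a long noncoding RNA on chromosome 13 whose row overlaps 26 others, was at 46674 and 42041 in spermatocytes and at 36281, 32225 and 31617 in spermatids. Its change was -0.41 (limma adjusted p = 0.00823), and the call was lost without spermatocyte replicate 1 (limma adjusted p = 0.0935) and without a variance trend (0.0513).

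The genes were then grouped by the type that GENCODE vM21 gives them; 703 of the 795 could be matched, 616 by symbol and 87 by a RefSeq synonym. Of 241 protein-coding genes 127 were higher and 55 lower, with a median of 1.20. Of 347 long noncoding RNAs 161 were higher and 106 lower, with a median of 0.61. Within the latter, long intergenic RNAs had a median of 1.27 (73 of 141 higher, 37 lower), antisense RNAs 0.61 (67 of 137 higher, 40 lower) and processed transcripts -0.30 (17 of 57 higher, 24 lower). Of 9 RNAs that start from a bidirectional promoter 5 were lower and 1 higher. Of 85 pseudogenes 41 were higher and 10 lower, with a median of 0.48, and 30 models awaiting experimental support (TEC) had 13 higher and 10 lower. The 92 unmatched genes were evenly divided, with 34 higher and 33 lower. For comparison, the other autosomal protein-coding rows had 6662 of 15278 higher and 4994 lower, with a median of 0.20. The other long noncoding rows had 683 of 1214 higher and 290 lower, with a median of 0.96. Other pseudogenes had 62 of 139 higher and 47 lower, with a median of 0.17, and other TEC models had 15 of 24 higher and 3 lower, with a median of 1.78.

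**Figure D3:**
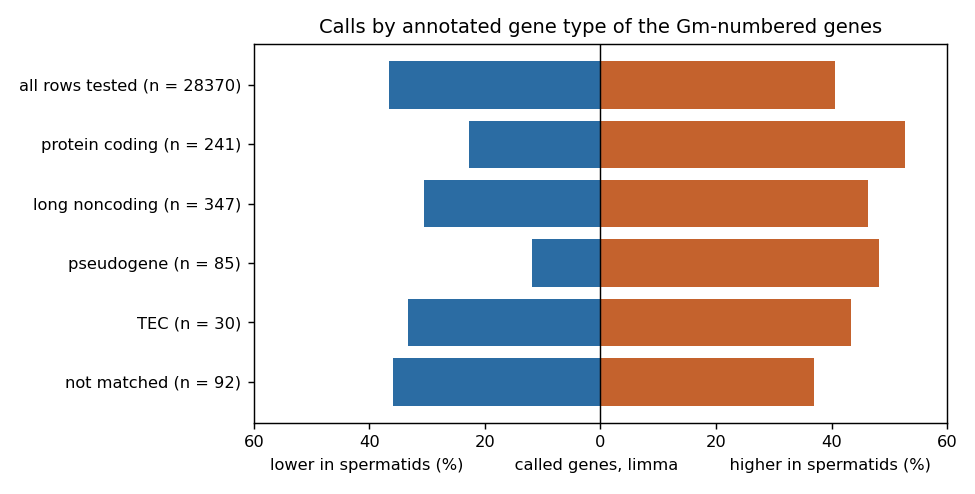
Share of genes (%) called lower in spermatids (left, blue) and higher (right, orange) by limma, for all rows tested and for the Gm-numbered genes of each annotated type. Pseudogenes have the fewest calls toward spermatocytes (10 of 85), and unmatched genes are the most evenly divided.

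RIKEN clone-named genes are the list most like this one, since they too are models without a functional name. Of 1978 such autosomal genes 56.1% were higher and 24.4% lower, with a median of 0.87. Autosomal rows with another symbol had 43.0% higher and 33.0% lower, with a median of 0.18, and rows with no symbol had 30.9% and 46.8%, with a median of -0.71. The Gm-numbered genes, with 47.3% and 26.9%, thus stood between RIKEN clones and genes with another symbol in the share called higher, and the differences between these lists were not tested.

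Multicopy families made up a share of the protein-coding rises. A transcript counted as near-identical where another gene's transcript matched it at 95% identity or more over at least 80% of its length. This held for 96 of the 703 matched genes (13.7%), namely 63 of 241 protein-coding genes, 29 of 85 pseudogenes and 3 of 347 long noncoding RNAs, plus 1 TEC model. Of the 96, 54 were higher and 11 lower, with a median of 2.10; of the other 607, 288 were higher and 170 lower, with a median of 0.62. Without the near-identical genes, the protein-coding median was 0.64 in place of 1.20.

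The families showed as runs of neighbours. When genes with gaps under 100 kb were joined, 644 genes stood alone and 60 pairs, 3 runs of 3, 1 of 4, 2 of 5 and 1 of 8 remained. The longest run lay at chr14:5942989-7791591. Its highest member, Gm5797, was at 4380 and 3057 in spermatocytes and at 34251, 29682 and 22635 in spermatids, 2.96 higher (SE 0.21, limma adjusted p = 2.41e-05). Gm3558 was at 128 and 105 against 6012, 3691 and 3442, 5.18 higher (SE 0.25, limma adjusted p = 3.94e-06). The transcripts of Gm5797 and Gm3558 are near-identical to those of 21 and 30 other genes, so neither level can be assigned to 1 locus. Of the 8 genes 7 were higher and 1 lower, with a median of 4.54. The lower one, Gm10044, is a processed transcript, not a protein-coding model, and was at 1477 and 1236 in spermatocytes and at 619, 422 and 482 in spermatids (-1.43).

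A neighbouring run at chr14:3049285-4041368 held 5 protein-coding genes, all higher, with a median of 4.44 and a range of 2.12 to 8.22. Gm5795, its highest, was at 270 and 306 in spermatocytes and at 8544, 6312 and 4547 in spermatids. Gm2897 was at 23.7 and 18.8 against 1771, 1003 and 1136. Gm5795 and Gm2897 have 18 and 34 near-identical partners, so these levels are uncertain as well. Spermatid replicate 1 was the highest of the 3 spermatid libraries for all 5 genes of this run and for all 8 of the longer one. It was the highest of the 3 for 182 of the 376 genes called higher, for 357 of the 795 Gm-numbered genes and for 11397 of the 28370 rows. The run at chr2:177759285-177957289 went the other way for its highest members. Gm14325 was at 376 and 329 in spermatocytes and at 27.9, 39.6 and 49.3 in spermatids (-3.18, limma adjusted p = 7.76e-05), and Gm14326 was at 284 and 257 against 89.9, 33.7 and 27.2 (-2.60, limma adjusted p = 0.00263). Of the other two, Gm14322 was higher by 4.17 and Gm14327 was not called, so this run was not uniform.

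**Figure D4:**
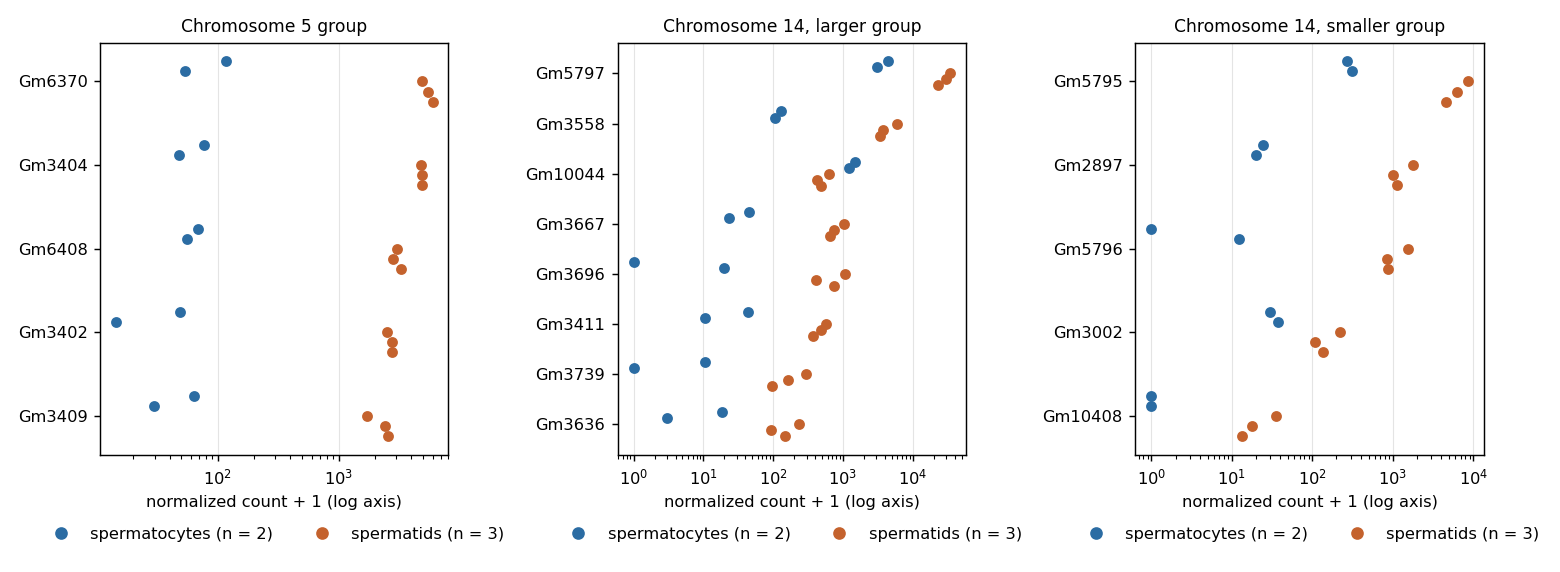
Normalized count + 1 (log axis) per sample for the genes of 3 local runs; each point is 1 sample, blue for spermatocytes (n = 2) and orange for spermatids (n = 3). All 5 chromosome 5 genes and all but Gm10044 on chromosome 14 lie higher in every spermatid sample than in any spermatocyte sample.

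The upstream sequences of the highest pair of the longest run were unlike each other, and are shown for that reason. The windows are the 250 bases before the start on the minus strand, from RefSeq on GRCm38.p6, at chr14:7332396-7332645 for Gm5797 and chr14:7568567-7568816 for Gm3558. Capitals mark each CG, the dinucleotide that is methylated in mammalian DNA and is dense in CpG islands.
Gm5797: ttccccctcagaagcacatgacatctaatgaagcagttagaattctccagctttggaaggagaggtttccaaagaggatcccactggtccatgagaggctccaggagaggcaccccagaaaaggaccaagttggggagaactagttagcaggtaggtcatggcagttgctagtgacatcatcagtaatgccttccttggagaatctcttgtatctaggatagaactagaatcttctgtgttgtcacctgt
Gm3558: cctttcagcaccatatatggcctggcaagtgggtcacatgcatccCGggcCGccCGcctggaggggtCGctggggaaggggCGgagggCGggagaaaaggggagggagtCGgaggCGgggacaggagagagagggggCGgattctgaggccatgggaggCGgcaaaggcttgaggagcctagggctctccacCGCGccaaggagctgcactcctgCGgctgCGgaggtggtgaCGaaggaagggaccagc
The window of Gm5797 holds no CG and that of Gm3558 holds 15. Both rows were called higher in spermatids, but their many near-identical partners mean that the levels cannot be assigned to these windows. Gm5797 was identical to Gm5795 of the other run at 97.3% of 221 aligned bases, and Gm3558 to Gm2897 at 96.8% of 158. Gm5796 resembled neither as closely, at 79.6% of 93 bases with Gm5797 and 73.5% of 102 with Gm3558. Gm3696, also of the longest run, was identical to Gm3558 at 87.9% of 231 bases and to Gm5797 at 69.8% of 179. The remaining genes of these chromosome 14 runs were not aligned.

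Over the 433 genes with a RefSeq window, from 250 bases before to 50 after the start, the ratio of observed to expected CG had a median of 0.22 in genes called higher, 0.42 in genes called lower and 0.32 in genes not called. The median over all 27025 genes of the table was 0.39. A ratio of at least 0.6 was found for 19.8% of the genes called higher, 37.3% of those called lower and 25.5% of those not called. The other autosomal rows had more such windows in the same order, at 50.8% of higher, 70.5% of lower and 64.0% of rows not called. Leaving out near-identical genes gave 20% and 38.1% for higher and lower Gm-numbered genes.

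Exact letters of 4 motifs were searched on both strands of the 300-base windows. The cyclic AMP response element TGACGTCA was in 1.39% of the Gm-numbered windows and 2.03% of all windows. The MYB letters AACCGTT were in 1.39% and 1.05%, an X-box motif of the RFX factors in 0.231% and 0.633%, and the Sp1 letters CCCCGCCC in 14.5% and 19.6%. Factors of the MYB family are known for their part in meiotic gene expression. Gm6653, a TEC model on the minus strand within Parpbp, had the MYB letters 37 bases before its start. They are in capitals in its window at chr10:88135854-88136103, shown because the gene was the highest of its type.
Gm6653: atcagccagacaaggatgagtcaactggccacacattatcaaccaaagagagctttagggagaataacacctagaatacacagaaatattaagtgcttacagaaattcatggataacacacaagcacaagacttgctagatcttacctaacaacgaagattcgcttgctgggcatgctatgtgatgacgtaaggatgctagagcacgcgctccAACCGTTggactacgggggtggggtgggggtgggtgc
Gm6653 was at 10354 and 10314 in spermatocytes and at 1267, 1145 and 1161 in spermatids, a change of -3.12 (SE 0.09, limma adjusted p = 6.42e-07). Parpbp, a PARP1-binding protein gene on the same strand, was 0.52 higher, so the 2 rows moved in opposite directions. Among the 6 windows with the MYB letters 3 genes were called higher and 2 lower, so the letters marked no single direction.

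Position relative to named genes was described next. Of the 795 genes 405 overlapped another row, and 183 of these were higher (45.2%) and 111 lower (27.4%). Of the 390 that overlapped none, 193 were higher (49.5%) and 103 lower (26.4%), with a median of 0.87. Genes over 5 kb from any named row had 197 of 373 higher (52.8%) and 92 lower (24.7%), with a median of 1.34. Genes were termed head to head where they start within 1 kb of a named gene's start on the opposite strand. Whether the genes of such a pair overlap was not part of that rule. The head to head genes had 39 of 116 higher (33.6%) and 43 lower (37.1%), with a median of 0.00. Over all rows tested the shares were 40.6% and 36.5%, with a median of 0.07, and no difference between these classes was tested. The strand setting of the counting is not given in the sources used here, so which of a pair of overlapping genes a read came from cannot be told apart.

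In pairs that overlap on opposite strands, 147 of 239 had both genes called, 111 in the same direction and 36 in opposite ones. Spearman's rho across the 239 pairs was 0.48, a description of pairs that share libraries and, in part, genome positions. In head to head pairs, 66 of 119 had both called, 50 in the same direction and 16 in opposite ones (rho 0.44). Where the Gm-numbered gene overlapped no named row, 30 of 52 head to head pairs had both called, 20 in the same direction and 10 in opposite ones (rho 0.40).

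**Figure D5:**
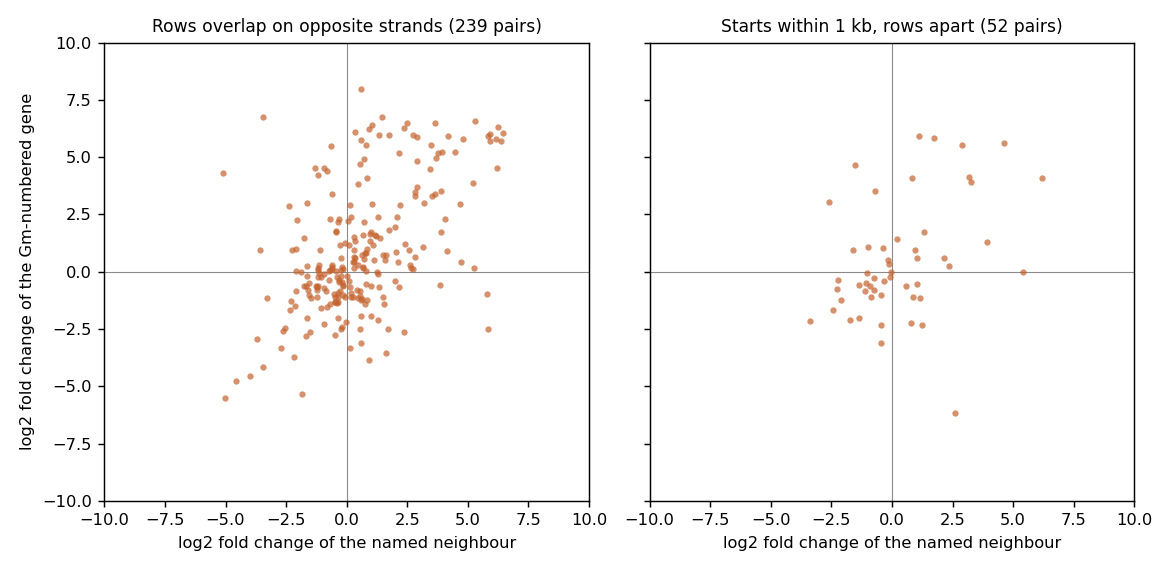
Log2 fold change (spermatids minus spermatocytes) of each Gm-numbered gene against that of its named neighbour, for 239 pairs of rows that overlap on opposite strands (left) and 52 head to head pairs in which the Gm-numbered gene overlaps no named row (right); each point is 1 pair. Points lie in all 4 sign combinations in both panels, with more pairs of equal sign than of opposite sign.

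Single pairs showed both patterns. Gm10501 lies opposite Hspa1l, a heat shock protein gene of spermatids, and head to head with Lsm2, which encodes part of the spliceosome. Gm10501 was at 427 and 373 in spermatocytes and at 44341, 18764 and 17329 in spermatids, 5.93 higher (SE 0.39, limma adjusted p = 1.52e-05). Hspa1l was 5.85 higher, whereas Lsm2 was 0.66 higher. Gm5617 starts head to head with Rbm7, an RNA-binding gene of the nuclear exosome targeting complex. Gm5617 was 1.29 higher as given above, and Rbm7 was 3.91 higher, from a mean of 874 to 13201.

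Opposite directions were found at Gm10638 and Gm17494. Gm10638, at chr8:86745698-86748416, was at 5232 and 5121 in spermatocytes and at 16782, 13685 and 12771 in spermatids, 1.47 higher (SE 0.13, limma adjusted p = 5.87e-05). Siah1a, a ubiquitin ligase gene that it overlaps on the opposite strand, was 1.78 lower on the log2 scale, from a mean of 4770 to 1396. Gm17494, at chr3:122255958-122293550, was at 17978 and 17030 against 10130, 12242 and 10831, and fell by 0.67 (limma adjusted p = 0.00102). Of the genes it overlaps, Gclm, which encodes a subunit of the glutathione-synthesis enzyme, fell by 1.22 and Dnttip2 was 1.33 higher. Gm11837, antisense to the calcium-binding protein gene Necab1, was at 13414 and 12595 against 24488, 18780 and 18252, 0.64 higher (limma adjusted p = 0.00496), while Necab1 at 0.30 was not called. With equal totals the difference of Gm11837 was -0.00 and not called, and without spermatocyte replicate 2 its call was lost (limma adjusted p = 0.0637).

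Pseudogenes were set beside the gene whose transcript they resemble. For 36 of them that gene had a row of its own, and for 35 that row was tested. Both were called in 18 pairs, 15 in the same direction and 3 in opposite ones; in 4 pairs only the pseudogene was called, in 6 only its counterpart and in 7 neither. Gm8203, 100% identical to the histone variant gene H2afz, fell by 1.26 while H2afz fell by 1.09, and reads of such a pair cannot be told apart. Gm5512 was 5.10 higher and its counterpart Rmnd1, at 99.5% identity, 4.95 higher.

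Other copies parted from their counterparts. The pairs in this paragraph were chosen after their values were seen. Gm11780, a processed pseudogene at chr4:4527774-4529458 with 80.9% identity to the phosphatase gene Ptp4a2, was at 565 and 407 in spermatocytes and at 46965, 22878 and 21532 in spermatids. It was 5.89 higher (limma adjusted p = 9.13e-06), while Ptp4a2 at 0.11 was not called. Gm7167, with 92.3% identity to Hormad1, a gene of the meiotic chromosome axis, was at 139 and 149 in spermatocytes and at 527, 344 and 267 in spermatids, 1.34 higher (limma adjusted p = 0.00475). Hormad1 itself fell by 1.80.

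Some of the 795 have since been given names. RefSeq lists 86 of the symbols, on 87 rows, as synonyms of another symbol, which in 1 case is again a Gm number; 36 of these rows were higher and 27 lower, with a median of 0.16, against 306 higher and 154 lower of the 616 rows that kept their symbol, with a median of 0.86. Among the 87, 11 were zinc finger (Zfp) genes, 2 of them higher and 4 lower, and 18 were named as opposite-strand transcripts, 9 higher and 8 lower. The genes in the next paragraph were picked for their known roles after their values were seen.

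Gm1564 is Meioc, a gene that germ cells need to stay in meiotic prophase. It was at 27870 and 28641 in spermatocytes and at 10768, 8273 and 7527 in spermatids, a change of -1.69 (limma adjusted p = 7.12e-05). Gm16432 is Catspere2, named for the CatSper calcium channel of the sperm tail, and it was lower in spermatids, at 507, 433 and 416 against 4849 and 4297 (-3.34). Gm129 is Ciart, a repressor in the circadian clock, and was 1.07 lower on the log2 scale (limma adjusted p = 0.000579). In the other direction, Gm355 is Spdye4c, of the Speedy family of cell cycle regulators, and it was at 74.3 and 47.6 against 4243, 5286 and 5753 (6.38). Gm13718 is Btbd18, a nuclear factor for transcription of piRNA precursors, and was at 100 and 101 in spermatocytes and at 291, 606 and 352 in spermatids (1.97). Gm101, now the cilia and flagella gene Cfap221, was 1.33 higher, whereas Gm872, now Cfap54 of the same class, at 0.09 was not called. Gm5506, now the enolase gene Eno1b, was 2.67 higher, at 1551 and 1539 in spermatocytes and at 15751, 8233 and 7277 in spermatids. Its transcript is 99.5% identical to that of Eno1 over 92.2% of its length, so its level is uncertain. Gm7325, now Mymx, a gene of muscle cell fusion, was not called, at 26.7 in spermatocytes and 22.2 in spermatids on average.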

How the data were processed

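Levels came from the deposited table, whose values are a signal that the authors scaled with DESeq (counts over a library's size factor), per the submitters' processing notes and the values. The notes name STAR 2.4.0, SAMtools, Picard and FastQC; coordinates are on mm10, per the file headers. Not given in the sources used here are the counting program, its strand setting and its handling of multi-mapping reads.

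Of all values 100% were whole multiples, within 0.001, of the smallest value in their column, so whole reads were recovered by division. Replicates were numbered in accession order and pair no samples. The members, classes and marker lists were chosen with earlier results of these data known. Rows with a mean of at least 10 were tested in R 4.3.3 by limma 3.58.1, applied to log2(value + 1) using eBayes and a trend, and Benjamini-Hochberg adjustment covered 28370 rows at 0.05; folds on this scale understate low genes. Recovered reads were tested with edgeR 4.0.16 and DESeq2 1.42.0, with the authors' size factors, as alternatives. The fit was tested on simulated counts.

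Named genes were the 8 largest called changes each way (no overlap, higher group's mean 100 or more), the 6 highest means, the highest of each gene type and position class, the 3 highest with an adjusted p above 0.05 and a change under 0.2, and the highest 2 of each of the 4 longest runs. The 4 highest overlapping or head to head genes with both called, 2 for each direction, were also named.

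Types, strands and lengths came from GENCODE vM21, synonyms and promoter windows from RefSeq (GRCm38.p6). Copies were found with blastn (BLAST 2.17.0), and windows were aligned with Biopython 1.88. Other steps ran in Python 3.11.15 with numpy 2.4.6, scipy 1.17.1, pandas 2.3.3 and matplotlib 3.10.9. Intervals and floors cover counting error only, and they treat each read as independent. In every library more rows held 2 reads than 1, as with 3423 against 1895 in spermatocyte replicate 1. Reads may thus not be independent, which was not tested, and the intervals may be too narrow and the floors too low.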

Additional observations from a re-analysis of the deposited data

How the results depend on the processing

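The count of 376 higher genes was 225 at a mean of at least 100, 212 with at least 10 in each group and 193 over genes that overlap no other row; the count of 214 lower genes was 135 at a mean of at least 100 and 103 over genes that overlap no other row. These settings leave fewer genes. The median of 0.59 was 0.50 with a pseudocount of 10, 0.45 with no filter, 0.10 with at least 10 in each group, 0.50 with TMM factors, 0.18 with quantile normalization and 0.87 over genes that overlap no other row, and it turned to -0.053 with equal library totals. Leaving out 1 library gave 344 to 375 higher, 157 to 221 lower and a median of 0.57 to 0.66. EdgeR called 377 higher and 217 lower and DESeq2 373 and 213; 588 and 581 of the 590 limma calls were also theirs in the same direction. Of 581 values of the 37 named genes under the alternatives, 556 kept direction and call, and 30 genes did so throughout; 4 other values, of uncalled genes, changed sign. With equal totals and with quantile normalization, Gm3417 turned to -0.44 and -0.32, Gm7444 to -0.35 and -0.30, Gm11837 to -0.0014 and -0.11 and Gm13139 to -0.63 and -0.73. The latter ranged from -0.25 to 0.16 when 1 library was left out, the lowest without spermatid replicate 1; the cause was not tested. With at least 10 in each group, 54.9% of the calls were higher, against 63.7%; over all rows this was 51.5% against 52.6%. No paired analysis was possible because the labels give the samples no shared replicate numbers. With 2 and 3 samples a group, small changes and low genes are measured with little precision.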

Other observations

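The balance of calls differed in value between chromosomes, a difference that was not tested. On chromosome 14, where the runs of near-identical genes lie, 31 of 51 Gm-numbered genes were higher (60.8%) and 8 lower (15.7%), with a median log2 fold change of 1.95; all 1212 rows tested there had 42.4% higher and 37.3% lower. Chromosome 19 had the largest share higher, at 10 of 15 (66.7%) with 1 lower (6.67%), against 41.8% and 35.8% of its 866 rows. On chromosome 1, 23 of 43 were higher (53.5%) and 10 lower (23.3%), against 43.4% and 32.4% of its 1632 rows. Chromosome 6 had 11 of 38 higher (28.9%) and 16 lower (42.1%), against 38.0% and 42.9% of its 1610 rows. Chromosome 13 had 11 of 31 higher (35.5%) and 14 lower (45.2%), against 40.5% and 38.2% of its 1151 rows.

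Calls also varied with the mean level over the 5 samples. Among the 174 Gm-numbered genes with a mean of 10 to 30, 62 were higher (35.6%) and 39 lower (22.4%), with a median of 0.15, where all 5485 rows at that level had 27.4% higher, 41.7% lower and a median of -0.73. Of the 163 with a mean of at least 1000, 97 were higher (59.5%) and 41 lower (25.2%), with a median of 1.06, where all 7960 rows had 52.5% higher, 29.1% lower and a median of 0.38.

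Zinc finger genes, by their later name or by the gene of the nearest transcript, formed a group of 17: 6 were higher, 6 lower and 5 not called. Their log2 fold changes ran from Gm10509 at -3.25 to Gm10046 at 6.54.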
